A study of Mus musculus with 6 samples.

Results

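A set of 9 genes typical of macrophages and monocytes was followed through RNA-Seq of mouse CD4+ T cells, in which they had been noticed for their levels in the Th17 cultures. They were *Lyz2*, *Lpl*, *Cd68*, *Mrc1*, *Csf1r*, *Itgam*, *Plaur*, *Clec12a* and *Hp*, which are 9 of the 24223 genes counted. The genes were picked by symbol, after their CPM, the usual unit of counts scaled to library size, had been compared across Naive, Th17 and Th1 and between replicates. Their own differences are therefore given as descriptions, without p-values, and where it is counted how many of them met the thresholds, the count supports nothing.

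The study asked how gene expression and chromatin change as T cells differentiate, and 6 RNA-Seq libraries were used here, with 2 replicates each of Naive, Th17 and Th1. Naive were CD4+CD44- T cells taken with a CD4+CD62L+ isolation kit from pooled lymph nodes and spleens of C57BL/6 mice aged 1 to 2 months, and were not cultured. Th17 were such cells after 5 days with antibodies to CD3 and CD28, anti-IL-4, anti-IFN-γ, TGF-β, IL-6, IL-1β and IL-23. Th1 were such cells after 5 days with the same CD3 and CD28 stimulus, anti-IL-4, IL-12 and IL-2. The stimulus was given as plate-bound and soluble antibody or as beads, and which of these applied to a library is not given in the sources used here. The methods describe no sort of the cultured cells before RNA was isolated, and the isolated starting cells were less than fully pure by flow cytometry. The 2 replicates are called biological in the study, and p-values measure the spread between these 2 samples a group.

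Monocytes circulate in blood and can become macrophages, which stay in tissues, engulf particles and degrade them in lysosomes. Both carry innate receptors, integrins and lysozyme, and most of them depend on signals through the receptor that *Csf1r* encodes. T cells do not depend on these genes for their known functions, although activated T cells can make some of them, such as *Plaur*. Several of the 9 genes are also used by neutrophils, among them *Lyz2*, *Itgam*, *Clec12a* and *Hp*.

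The promoters of 4 genes are shown because they belong to the 2 pairs of the 9 genes with the most alike profiles over the libraries, *Plaur* with *Clec12a* and *Lyz2* with *Mrc1*. RefSeq promoter sequences on GRCm38.p6 were matched for 6 of the 9 genes, and *Csf1r*, *Lpl* and *Hp* had no match. Each stretch is the 250 bases before the RefSeq start, 5′ to 3′ on the strand of the gene. It lies at chr10:117282273-117282522 (minus strand) for *Lyz2*, chr2:14229164-14229413 (plus) for *Mrc1*, chr6:129349994-129350243 (plus) for *Clec12a* and chr7:24462233-24462482 (plus) for *Plaur*. Gene positions given below are from GENCODE vM21, whose starts differ somewhat from those of RefSeq. In GENCODE the stretch of *Clec12a* lies inside the gene, and those of *Lyz2* and *Mrc1* overlap the first bases of theirs. Capitals mark AGGAAGT or its reverse complement, a core that PU.1 and other ETS factors bind, in *Lyz2* and *Mrc1*. In *Clec12a* and *Plaur* they first mark TGANTCA, a loose form of the AP-1 motif that allows any base at its centre. That base is A in *Clec12a* and C in *Plaur*. Next marked is TTGCNNAA or its reverse complement, a C/EBP motif.
Lyz2: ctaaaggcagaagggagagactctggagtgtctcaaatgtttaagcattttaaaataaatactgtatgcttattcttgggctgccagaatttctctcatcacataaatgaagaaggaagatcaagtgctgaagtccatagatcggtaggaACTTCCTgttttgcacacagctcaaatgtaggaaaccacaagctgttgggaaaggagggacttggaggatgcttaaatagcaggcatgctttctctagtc
Mrc1: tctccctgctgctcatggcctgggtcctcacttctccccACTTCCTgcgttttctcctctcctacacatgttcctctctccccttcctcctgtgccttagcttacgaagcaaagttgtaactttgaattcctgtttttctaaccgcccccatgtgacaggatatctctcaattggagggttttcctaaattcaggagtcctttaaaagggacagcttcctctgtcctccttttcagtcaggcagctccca
Clec12a: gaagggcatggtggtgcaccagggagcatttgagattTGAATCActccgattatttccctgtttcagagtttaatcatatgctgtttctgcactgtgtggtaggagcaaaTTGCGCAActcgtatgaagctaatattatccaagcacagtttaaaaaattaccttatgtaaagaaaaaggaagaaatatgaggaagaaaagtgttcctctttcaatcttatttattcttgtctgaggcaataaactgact
Plaur: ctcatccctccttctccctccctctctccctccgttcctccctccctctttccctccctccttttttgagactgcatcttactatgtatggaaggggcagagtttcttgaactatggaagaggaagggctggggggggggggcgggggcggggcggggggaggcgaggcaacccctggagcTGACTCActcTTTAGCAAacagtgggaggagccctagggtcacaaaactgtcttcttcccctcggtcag

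Both strands were searched for the 3 motifs, and no 2 marked matches overlapped. AGGAAGT began 100 bases before the start of *Lyz2* and at position -211 of *Mrc1*, and was present in 2 of the 6 promoters and in 7.69% of 32851 promoters of the same length. TTGCNNAA was in 3 of the 6 (*Cd68*, *Clec12a* at position -140 and *Plaur* at position -59) and in 9.56% of all. TGANTCA was in the same 3, at position -213 of *Clec12a* and -69 of *Plaur*, and in 6.75% of all. *Itgam* held none of the 3. A match is a description of the letters and shows neither binding nor regulation.

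The libraries held 17742158 to 69080017 counts, so that 3 counts corresponded to 0.0440 to 0.190 CPM, and in each group replicate 1 was the deeper. Pearson's r between replicates across the genes tested was 0.970 to 0.978. The summed level of 12 T cell genes was 4881 and 5650 CPM in the Th17 libraries and 4901 to 6842 CPM in the other 4, and all 12 exceeded 10 CPM in every library. None of these 12 was called in any comparison by edgeR, with 2 to 3 a comparison at an unadjusted p under 0.05 and 1 to 2 called by DESeq2. Here and below, levels are CPM scaled by edgeR's TMM method. A gene was called where the edgeR quasi-likelihood test across 13607 genes gave a Benjamini-Hochberg adjusted p under 0.01 with a log2 fold change beyond 1 in size.

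*Lyz2* encodes lysozyme, the enzyme that cuts bacterial cell walls and that macrophages and granulocytes store and secrete. The Naive libraries had 25.8 and 8.91 CPM, the Th17 libraries 222.5 and 762 CPM, and the Th1 libraries 6.31 and 10.6 CPM. Both Th17 libraries were far above the other 4, and the second was higher than the first. The fitted log2 fold change was 4.81 ± 0.69 (SE, n = 2 a group) between Th17 and Naive and 5.88 ± 0.73 between Th17 and Th1. These levels rested on 14544 and 13473 counts in Th17. The paralog *Lyz1* was near 0, with at most 0.283 CPM. Transcripts of the paralogs were 96.0% identical over 1262 aligned bases, their longest identical run was 118 bases, and no window of 150 bases, the read length, was shared.

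*Lpl*, the lipase that frees fatty acids from lipoproteins and that macrophages secrete, was at 0.616 and 0.198 CPM in Naive. It reached 18.6 and 154 CPM in the Th17 libraries, against 2.68 and 1.58 CPM in Th1. The groups did not overlap, and the Th17 libraries stood far apart from each other. The log2 fold change was 7.52 ± 1.02 over Naive and 5.29 ± 0.90 over Th1.

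*Mrc1*, the mannose receptor of tissue macrophages, was close to the limit of detection outside Th17. It had counts of 97 and 173 in Th17, against 11 and 0 in Naive and 5 and 1 in Th1. In CPM the Th17 libraries held 1.48 and 9.79, and no other library exceeded 0.161. *Mrc1* was the only one of the 9 genes that passed the filter on low counts through its Th17 libraries alone, so that its difference was bound to be large. *Mir511*, which lies in an intron of *Mrc1*, is counted as a gene of its own.

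*Cd68*, a glycoprotein of the lysosome and endosome in macrophages, was among the least different between Th17 and the other groups. It had 3.30 and 3.81 CPM in Naive, 5.51 and 11.8 CPM in Th17, and 3.26 and 1.26 CPM in Th1. Both Th17 libraries were above the other 4, but the lower one only narrowly. The log2 fold change was 1.28 ± 0.55 over Naive and 1.88 ± 0.56 over Th1.

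*Csf1r*, the receptor for the growth factors CSF1 and IL-34, had the smallest difference of the 9 between Th17 and Naive. Its levels of 5.34 and 11.7 CPM in Th17 overlapped those of 7.41 and 4.80 CPM in Naive. Th1 held only 0.418 and 0.442 CPM. The log2 fold change was 0.47 ± 0.48 between Th17 and Naive, 4.30 ± 0.58 between Th17 and Th1, and -3.83 ± 0.57 between Th1 and Naive. Exons of *Csf1r* overlap those of *Hmgxb3* on the opposite strand. The labels name a Smart-seq2 protocol and the supplementary code a reverse-stranded count, and if strand was not kept, reads from these overlapping parts cannot be told apart.

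*Itgam* encodes the alpha chain of the integrin Mac-1 (CD11b), a marker shared by macrophages, monocytes and neutrophils. It had 4.06 and 4.70 CPM in Naive, 54.2 and 70.1 CPM in Th17, and 5.18 and 9.61 CPM in Th1. The Th17 libraries were close to each other and well apart from the rest. The log2 fold change was 3.83 ± 0.39 over Naive and 3.09 ± 0.38 over Th1.

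*Plaur* and *Clec12a* had the most alike profiles of any pair among the 9 genes. *Plaur*, the urokinase receptor, had 2.74 and 3.81 CPM in Naive, 14.7 and 25.8 CPM in Th17, and 0.557 and 0.632 CPM in Th1. *Clec12a*, an inhibitory C-type lectin receptor of myeloid cells, had 6.10 and 3.96 CPM in Naive, 20.6 and 29.5 CPM in Th17, and 1.28 and 0.885 CPM in Th1. For both, the order was Th17, Naive, Th1 with no overlap between groups. The log2 fold change of Th17 over Naive was 2.63 ± 0.43 for *Plaur* and 2.30 ± 0.40 for *Clec12a*, and that over Th1 was 5.10 ± 0.50 and 4.48 ± 0.45.

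*Hp*, haptoglobin, binds free hemoglobin and is stored in granules of neutrophils as well as made by monocytes. It had 7.0 and 3.37 CPM in Naive, 52.0 and 49.8 CPM in Th17, and 0.572 and 0.442 CPM in Th1. The groups did not overlap, and the Th17 libraries differed by less than those of any other of the 9 genes. The log2 fold change was 3.28 ± 0.40 over Naive and 6.59 ± 0.49 over Th1, the largest of the 9 against Th1.

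**Figure D1:**
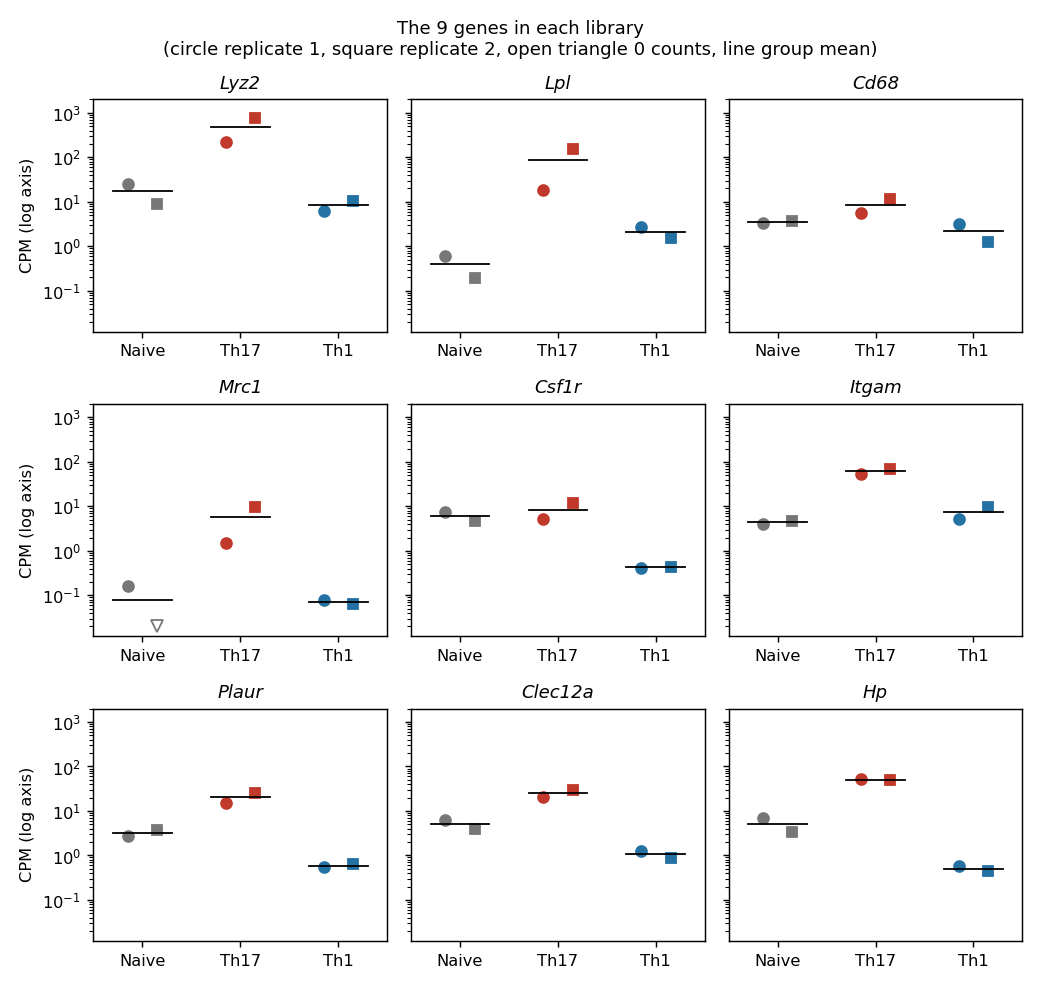
Level of each of the 9 genes in each of the 6 libraries, in TMM-scaled CPM on a log axis, with circles for replicate 1, squares for replicate 2, an open triangle for 0 counts and lines at the group means. The Th17 points lie above all others for 8 genes, while those of *Csf1r* (5.34 and 11.7 CPM) overlap Naive (7.41 and 4.80 CPM).

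All 9 genes passed the filter on low counts. In 8 of the 9, all but *Csf1r*, both Th17 libraries were above the other 4, which was so for 18.9% of the 13607 genes tested. Of the 9, 7 were called higher in Th17 than in Naive, all but *Cd68* and *Csf1r*, where 4.01% of all genes tested were. Against Th1, 8 of 9 were called higher in Th17, all but *Cd68*, where 2.83% of all genes were. In Th1 compared with Naive, 4 of 9 were called lower (*Csf1r*, *Plaur*, *Clec12a* and *Hp*), where 2.81% of all genes were, and 0 of 9 were called higher by edgeR, with 1 at an unadjusted p under 0.05 and 0 by DESeq2. The set was chosen with these contrasts known, so nothing is read from the counts. The comparisons share control libraries. Median log2 fold changes of the 9 genes were 3.28 (Th17 to Naive), 5.10 (Th17 to Th1) and -1.07 (Th1 to Naive), beside -0.02, 0.03 and -0.02 over all genes tested. In these bulk samples, fewer cells of a type and less RNA per cell cannot be told apart.

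**Figure D2:**
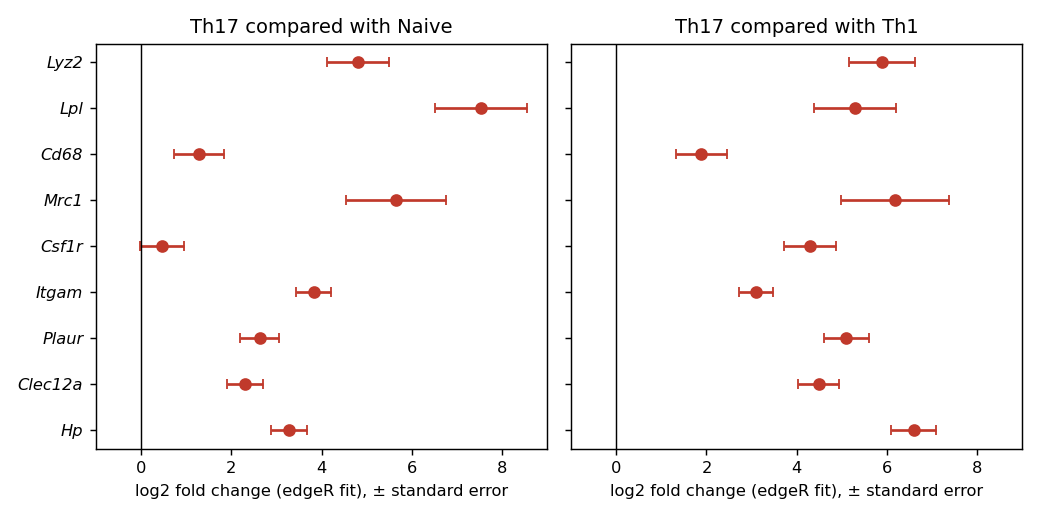
Fitted log2 fold change of each of the 9 genes in Th17 compared with Naive (left) and with Th1 (right), with bars of 1 SE from the edgeR model. Values run from 0.47 (*Csf1r*) to 7.52 (*Lpl*) over Naive, and from 1.88 (*Cd68*) to 6.59 (*Hp*) over Th1.

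Levels of different genes were compared per kilobase of merged exon (annotation GENCODE vM21, assembly GRCm38, which is mm10). In Th17, *Lyz2* was the highest at 374 ± 290 CPM per kilobase (SD, n = 2), followed by *Hp* at 31.7 ± 0.961 and *Itgam* at 12.4 ± 2.24. The next genes were *Lpl* at 8.21 ± 9.10, *Plaur* at 7.75 ± 2.98, *Cd68* at 6.89 ± 3.55 and *Clec12a* at 4.53 ± 1.14. *Lpl* had 1.78 CPM per kilobase in Th17 replicate 1 and 14.7 in replicate 2. The means of *Itgam*, *Plaur*, *Cd68* and *Clec12a* lay between these values, so its place among them is not settled. In both Th17 libraries *Lpl* was above *Csf1r* (0.925 and 2.03) and *Mrc1* (0.233 and 1.54). *Csf1r* at 1.48 ± 0.780 and *Mrc1* at 0.884 ± 0.921 had the lowest means and overlapped. All 9 are protein-coding genes. *Lyz2* is at chr10:117277331-117282321, *Lpl* at chr8:68880491-68907448, *Cd68* at chr11:69664213-69666153, *Mrc1* at chr2:14229392-14332057 and *Itgam* at chr7:128062640-128118491. *Plaur* is at chr7:24462484-24475968, *Clec12a* at chr6:129342691-129365303, *Hp* at chr8:109575128-109579172 and *Csf1r* on chromosome 18.

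The 2 Th17 libraries differed in several of these genes, and not in the same way for all. *Lpl* was 8.24-fold higher in replicate 2 than in replicate 1, a ratio that 0.224% of the genes tested reached. *Mrc1* was 6.59-fold higher (0.358% of genes) and *Lyz2* 3.43-fold higher (1.15%). *Csf1r* was 2.19-fold and *Cd68* 2.15-fold higher. *Plaur* was 1.75-fold, *Clec12a* 1.43-fold and *Itgam* 1.29-fold higher, and *Hp* was nearly equal at 0.958-fold, with 51.9% of genes at least as high. Of the 4 genes noted above as shared with neutrophils, *Hp*, *Itgam* and *Clec12a* were the nearest to equal of the 9, while *Lyz2* was not, and the most unequal were *Lpl* and *Mrc1*.

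Marker lists of other cell types moved between the same libraries, and their part in the levels of the 9 genes was not tested. Of the macrophage and monocyte list described below, 24 of the 44 genes with counts in both Th17 libraries (54.5%) were at least 2-fold higher in replicate 2, against 443 of all 13412 genes (3.30%). The summed level of that list was 1124 and 2491 CPM in the Th17 libraries, 987 and 966 CPM in Th1, and 485 and 327 CPM in Naive. A few genes carried much of these sums. *Ccr2* had 465 and 459 CPM in Th17 and 132 and 151 CPM in Th1. *Lgals3* had 89.2 and 189 CPM in Th17 and 451 and 360 CPM in Th1. Of 12 mast cell and basophil genes, 7 were at least 2-fold higher in replicate 2, with sums of 300 and 663 CPM in Th17 and 68.5 to 233 CPM in the other 4. Of 18 neutrophil genes, 0 were, and their sums were 3434 and 3264 CPM in Th17, 81.0 and 103 CPM in Th1, and 422 and 245 CPM in Naive. Of the 12 T cell genes, 0 were 2-fold higher. Dendritic cell genes summed to 127 and 211 CPM in Th17 and 59.8 to 122 CPM elsewhere, and B cell genes to 22.7 and 17.1 CPM in Th17 and 2.94 to 12.4 CPM elsewhere.

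**Figure D3:**
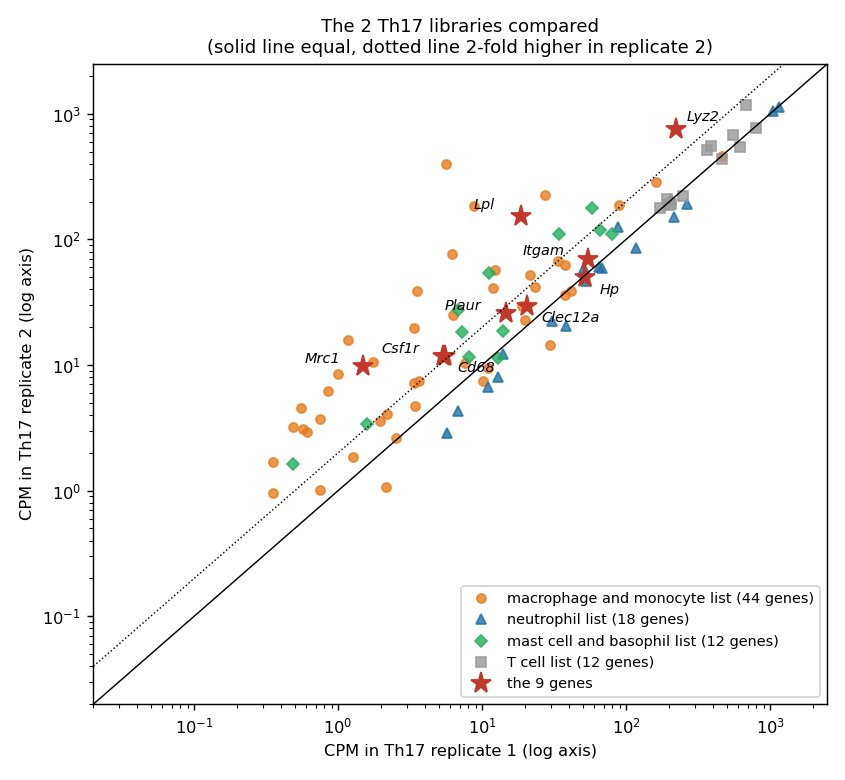
CPM of each gene in Th17 replicate 1 (x) and replicate 2 (y), both on log axes, for the 9 genes (stars) and for genes of 4 marker lists. *Lpl*, *Mrc1*, *Lyz2*, *Csf1r* and *Cd68* lie above the dotted line of a 2-fold difference, as do 24 of 44 genes of the macrophage and monocyte list, while *Hp* lies on the line of equal level with the neutrophil and T cell genes near it.

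**Figure D4:**
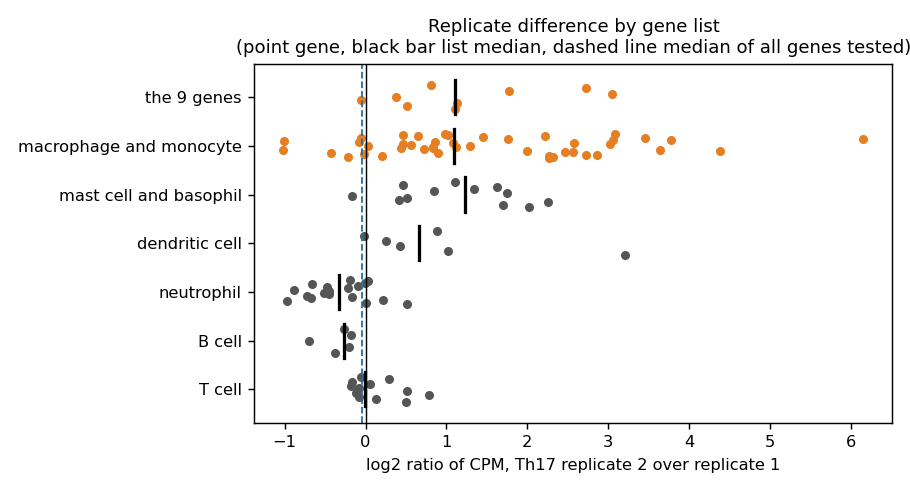
Log2 ratio of Th17 replicate 2 to replicate 1 for each gene, by marker list, with a bar at the median of the list and a dashed line at the median of all genes tested. The median fold was 2.15 for the 9 genes, 2.14 for the macrophage and monocyte list, 2.34 for mast cell and basophil genes, 0.793 for neutrophil genes and 0.996 for T cell genes.

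The neutrophil genes with the highest Th17 levels, *S100a8*, *S100a9* (the subunits of calprotectin) and *Ngp* (a granule protein), rose in Th17 over both Naive and Th1. They were picked for those levels, which favours a rise in Th17, and their tests carry that limit. The largest adjusted p among these 6 differences was 0.000562 for *Ngp* against Th1, with a log2 fold change of 4.81 ± 0.53. Of the 18 neutrophil genes, 13 rose and 1 fell in Th17 compared with Naive, where 4.01% and 1.43% of all genes tested did. Compared with Th1, 16 rose and 0 fell by edgeR, where 2.83% and 2.7% of all genes did. In that comparison 1 of the 18 was lower at an unadjusted p under 0.05 and 1 by DESeq2. Of these 18, 3 passed the filter through Th17 alone, and 10 and 13 of the other 15 rose. Of the 12 mast cell and basophil genes, 4 rose compared with Naive and 2 compared with Th1, where 4.01% and 2.83% of all genes did. Of these 12, 2 passed the filter through Th17 alone, and 4 and 2 of the other 10 rose. The 3 of the 12 highest in Th17 were picked in the same way, with the same limit. Among them, the basophil protease *Mcpt8* rose over Naive (log2 fold change 4.34 ± 0.70, edgeR adjusted p = 0.00338). *Prg2*, an eosinophil granule protein, rose over Th1 (7.19 ± 0.89, edgeR adjusted p = 0.000947), and *Prss34*, a basophil protease, passed in neither (edgeR adjusted p = 0.0327 and 0.0588). The call of *Mcpt8* was lost without Th17 replicate 2 (edgeR adjusted p 0.0168).

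A list of 53 further macrophage and monocyte genes, without the 9, was examined next. Of these, 45 passed the filter on low counts, 11 of them through Th17 alone. This list, like the other marker lists, was chosen with earlier results of these data known, so its counts are descriptions. Of the 45, 18 rose and 2 fell in Th17 compared with Naive, where 4.01% of all genes rose and 1.43% fell. Against Th1, 15 rose and 0 fell in Th17, where 2.83% and 2.7% of all genes did, and of the 45, 2 were lower at an unadjusted p under 0.05 and 1 was by DESeq2. Of the 34 that did not need Th17 to pass, 13 and 12 rose. In Th1 compared with Naive, 7 rose and 5 fell, where 4.64% and 2.81% of all genes did. The median log2 fold changes were 3.22, 3.49 and 0.01, and 3.18, 3.46 and 0.01 with genes at 0 in a group set to their bound, beside -0.02, 0.03 and -0.02 over all genes tested. Without Th17 replicate 2, 8 rose over Naive and 3 over Th1. Over Naive the count was 9 without Naive replicate 1 and 8 without Naive replicate 2. Over Th1 it was 5 without either Th1 replicate and 23 without Naive replicate 1. In Th1 compared with Naive, 6 were called in either direction without Naive replicate 1 and 7 without Th1 replicate 1.

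Among them, 8 are markers that define macrophages or monocytes, and they did not move together. *Emr1*, which encodes F4/80, had 0.543 and 0.347 CPM in Naive, 3.35 and 7.24 CPM in Th17, and 0.480 and 0.442 CPM in Th1. It rose in Th17 over Naive (log2 fold change 3.51 ± 0.61, edgeR adjusted p = 0.00528) and over Th1 (3.49 ± 0.62, 0.00581). *Fcgr1*, the high-affinity IgG receptor, had 2.54 and 2.60 CPM in Th17 and at most 0.149 CPM in the other 4 libraries. *Cd14*, the lipopolysaccharide co-receptor, had 2.19 and 4.07 CPM in Th17 and at most 0.665 CPM elsewhere. Both *Fcgr1* and *Cd14* passed the filter through their Th17 libraries alone, so that they had to be higher there, and no test is given for them. The rise of *Emr1* over Naive was lost without Th17 replicate 2 or either Naive replicate (highest edgeR adjusted p 0.0602), and that over Th1 without any 1 of the 4 libraries compared (0.0702).

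The other defining markers were low in Th17 or higher elsewhere. *C1qa*, a chain of complement C1q, had 0.352 and 1.70 CPM in Th17 and 0 counts in Th1, at least 8.68-fold higher in Th17 against a floor of 3 counts a library, and it too passed the filter through Th17 alone. *Cd163*, the receptor for haptoglobin bound to hemoglobin, had 5.88 and 3.07 CPM in Naive, 0.0459 and 0 CPM in Th17, and 0 counts in Th1. *Cd163* fell in Th17 compared with Naive (edgeR adjusted p = 0.00171) and was at least 37.9-fold higher in Naive than in Th1. The fall of *Cd163* was lost without either Th17 replicate (edgeR adjusted p up to 0.0133). The fractalkine receptor *Cx3cr1* had 5.80 and 2.28 CPM in Naive and at most 1.02 CPM elsewhere. *Mertk*, a receptor for dying cells, reached no more than 0.226 CPM and was not tested. Of the 8, 3 met the thresholds in Th17 over Naive (*Emr1*, *Cd14* and *Fcgr1*) and 2 over Th1 (*Emr1* and *Fcgr1*), of which only *Emr1* had passed the filter without its Th17 libraries, and all 8 stayed under 10 CPM in every library.

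Of the 10 other genes of the list with the highest Th17 levels, 7 met the thresholds over Naive, where 4.01% of all genes tested rose. Of the 7, *Clec4n* had passed the filter through Th17 alone. As the 10 were picked for high levels in Th17, the choice favours a rise there, and nothing is read from the count. The tests of these genes, here and in the next paragraph, carry the same limit. *Mmp12*, the macrophage elastase, had counts of 1 and 0 in Naive and 5.61 and 399 CPM in Th17, against 0.650 and 0.379 CPM in Th1 (edgeR adjusted p = 0.0041 and 0.00879). *Clec4n*, the lectin receptor dectin-2, had 8.83 and 184 CPM in Th17 and no more than 0.263 CPM elsewhere, and given that filter no test is given for it. In both genes the second Th17 library was many times the first. *Tyrobp*, the signalling adaptor DAP12, had 33.8 and 67.0 CPM in Th17 against 3.08 and 2.15 CPM in Th1 and 11.2 and 3.81 CPM in Naive, and rose over both. *Ccr2*, the chemokine receptor that also marks some activated T cells, rose over both, to 465 and 459 CPM (log2 fold change 4.03 ± 0.30 over Naive and 1.71 ± 0.27 over Th1, edgeR adjusted p = 5.7e-05 and 0.00327). *Ccr2* was also called in Th1 over Naive. The call of *Ccr2* over Th1 was lost without any 1 of the 4 libraries compared (edgeR adjusted p up to 0.0238). Over Naive, *Mmp12* was lost without either Naive replicate (0.0245) and *Tyrobp* without Naive replicate 2 or either Th17 replicate (0.0793). Over Th1, *Mmp12* was lost without Th17 replicate 2 or either Th1 replicate (0.043) and *Tyrobp* without Th17 replicate 2 (0.0118).

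*Lgals3*, galectin-3, and *Gpnmb*, a glycoprotein of lysosomes, rose in both kinds of culture. *Lgals3* had 89.2 and 189 CPM in Th17 and 451 and 360 CPM in Th1, against 14.0 and 5.20 CPM in Naive. *Gpnmb* had 27.5 and 224 CPM in Th17, 48.5 and 63.8 CPM in Th1, and 4.09 and 4.06 CPM in Naive. Neither differed past the threshold between Th17 and Th1. *Csf2rb*, the shared beta chain of the receptors for GM-CSF, IL-3 and IL-5, rose over Naive (3.69 ± 0.56, edgeR adjusted p = 0.00237), and *Clec7a*, the beta-glucan receptor dectin-1, rose over Th1 (6.55 ± 1.15, edgeR adjusted p = 0.00558). The protease *Ctss* passed in no comparison, at 118 to 286 CPM over the 6 libraries, and *Ly6c2*, a surface protein of classical monocytes and of some T cells, rose in Th1 over Naive only (1.82 ± 0.31, edgeR adjusted p = 0.00386). The call of *Csf2rb* was lost without Th17 replicate 2 (edgeR adjusted p 0.015), that of *Clec7a* without Th17 replicate 2 or either Th1 replicate (up to 0.0306), and that of *Ly6c2* without Naive replicate 2 or Th1 replicate 2 (up to 0.0137). *Gpnmb* was lost in Th17 without either Naive replicate (0.0178), and in Th1 without either Naive replicate or Th1 replicate 2 (0.0405).

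Genes that act with the 9 were then taken from a list of 34 partners, of which 31 passed the filter, 2 of them through Th17 alone. The partners too were chosen with earlier results of these data known, so their counts are descriptions. Compared with Naive, 7 rose and 1 fell in Th17, where 4.01% and 1.43% of all genes did. Compared with Th1, 6 rose and 1 fell in Th17, where 2.83% and 2.7% of all genes did. Of the 29 that did not need Th17 to pass, 5 rose over Naive and 4 over Th1. In Th1 compared with Naive, 1 rose and 3 fell, where 4.64% and 2.81% of all genes did. Their median log2 fold changes were 1.07, 0.80 and 0.15. Without Th17 replicate 2, 3 and 2 partners were called in either direction in the first and second of these comparisons. The second count was 4 without Th17 replicate 1 and 3 without Th1 replicate 2.

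Among the partners of *Csf1r*, the ligand gene *Csf1* was highest where its receptor was lowest. *Csf1* had 3.83 and 4.60 CPM in Naive, 10.3 and 7.13 CPM in Th17, and 355 and 262 CPM in Th1. It rose in Th1 over Naive (log2 fold change 6.20 ± 0.36, edgeR adjusted p = 1.6e-05), and was lower in Th17 than in Th1 (-5.14 ± 0.34, edgeR adjusted p = 7.5e-05). The other ligand gene, *Il34*, reached at most 2.65 CPM and was called in no comparison. The partners listed for *Clec12a* were the phosphatase genes *Ptpn6* and *Ptpn11*, whose products act downstream of inhibitory receptors, and both were called in no comparison.

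Around *Lpl*, a fatty acid binding protein changed while the genes for its maturation and regulation passed no test. *Fabp5* had 22.5 and 8.86 CPM in Naive, 320 and 209 CPM in Th17, and 48.8 and 24.7 CPM in Th1, and rose over Naive (log2 fold change 4.06 ± 0.51, edgeR adjusted p = 0.000942) and Th1 (2.84 ± 0.49, 0.00482). *Fabp4* had 15.3 and 3.0 CPM in Th17 and no more than 0.0773 CPM elsewhere, and as it passed the filter through Th17 alone, no test is given for it. For these 2 genes replicate 1 was the higher Th17 library, unlike *Lpl*. *Plin2*, the lipid droplet coat protein, had 98.2 and 82.4 CPM in Th17 and rose over Th1 only (2.33 ± 0.40, edgeR adjusted p = 0.00509). Over Th1, the call of *Fabp5* was lost without Th1 replicate 2 or either Th17 replicate (edgeR adjusted p up to 0.0278), and that of *Plin2* without any 1 of the 4 libraries compared (0.0282). The lipase chaperone *Lmf1*, the inhibitor *Angptl4*, the scavenger receptor *Cd36*, the regulator *Pparg* and the acid lipase *Lipa* were called in no comparison. *Gpihbp1*, which carries the lipase on capillaries, had 0 counts in all 6 libraries, which allows at most 0.0440 to 0.190 CPM.

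Around *Plaur*, its ligand gene *Plau* (urokinase) had 1.59 and 5.49 CPM in Th17 and no more than 0.418 CPM elsewhere, and was not called (edgeR adjusted p = 0.0413 against Naive and 0.0319 against Th1). *Serpinb2*, the inhibitor PAI-2, had 0 counts in Naive and 5.29 and 36.7 CPM in Th17, at least 218-fold higher against a floor of 3 counts a library, and was called (edgeR adjusted p = 0.00138). In Th1 *Serpinb2* had 1.28 and 0.695 CPM. *Plat* and *Lrp1* were called in no comparison.

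The integrin partner of *Itgam*, *Itgb2*, which leukocytes in general express, had 409 and 436 CPM in Th17 against 495 to 726 CPM in the other 4 libraries, and was called in none. *Itgax* (CD11c) had 1.44 and 23.8 CPM in Th17 and no more than 1.50 CPM elsewhere, and was not called. *Itgad* fell in Th1 compared with Naive (edgeR adjusted p = 0.00719), which was lost without any 1 of the 6 libraries (up to 0.0595), and *Itgal*, the alpha chain of LFA-1 on lymphocytes, was called in none.

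Of the genes that handle the hemoglobin bound by *Hp*, the heme oxygenase *Hmox1* had 1.14 and 2.18 CPM in Naive, 8.55 and 18.3 CPM in Th17, and 6.40 and 9.04 CPM in Th1. It rose in Th17 over Naive (log2 fold change 3.04 ± 0.53, edgeR adjusted p = 0.00516). The iron exporter *Slc40a1* had 21.4 and 2.28 CPM in Naive, 6.04 and 5.71 CPM in Th17, and 0.0309 and 0.190 CPM in Th1. It was called higher in Th17 than in Th1 (6.31 ± 1.21, edgeR adjusted p = 0.00823). *Slc40a1* was also called lower in Th1 than in Naive (-7.33 ± 1.22, edgeR adjusted p = 0.00336). Between Th17 and Naive it was not called (-1.02 ± 0.81, edgeR adjusted p = 0.404). The rise of *Hmox1* was lost without Naive replicate 1 or Th17 replicate 2. For *Slc40a1*, the call of Th17 over Th1 was lost without any 1 of the 4 libraries compared. Its call in Th1 compared with Naive was lost without Th1 replicate 1. *Hpx*, hemopexin, did not pass the filter.

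Of the lysosome genes grouped with *Cd68*, the tetraspanin *Cd63* had 11.7 and 3.27 CPM in Naive, 56.7 and 164 CPM in Th17, and 5.20 and 2.91 CPM in Th1. *Cd63* rose over Naive (log2 fold change 3.85 ± 0.67, edgeR adjusted p = 0.00505) and Th1 (4.73 ± 0.70, 0.00242). *Lamp2* rose over Naive (1.73 ± 0.32, edgeR adjusted p = 0.00676). The calls of *Cd63* were lost without Th17 replicate 2 and without replicate 2 of the group it was compared with (edgeR adjusted p up to 0.0327), and that of *Lamp2* without Naive replicate 2 or either Th17 replicate (0.057). *Lamp1* and the cathepsin genes *Ctsb*, *Ctsd*, *Ctsl* and *Ctsz*, which many cell types express, were called in no comparison.

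**Figure D5:**
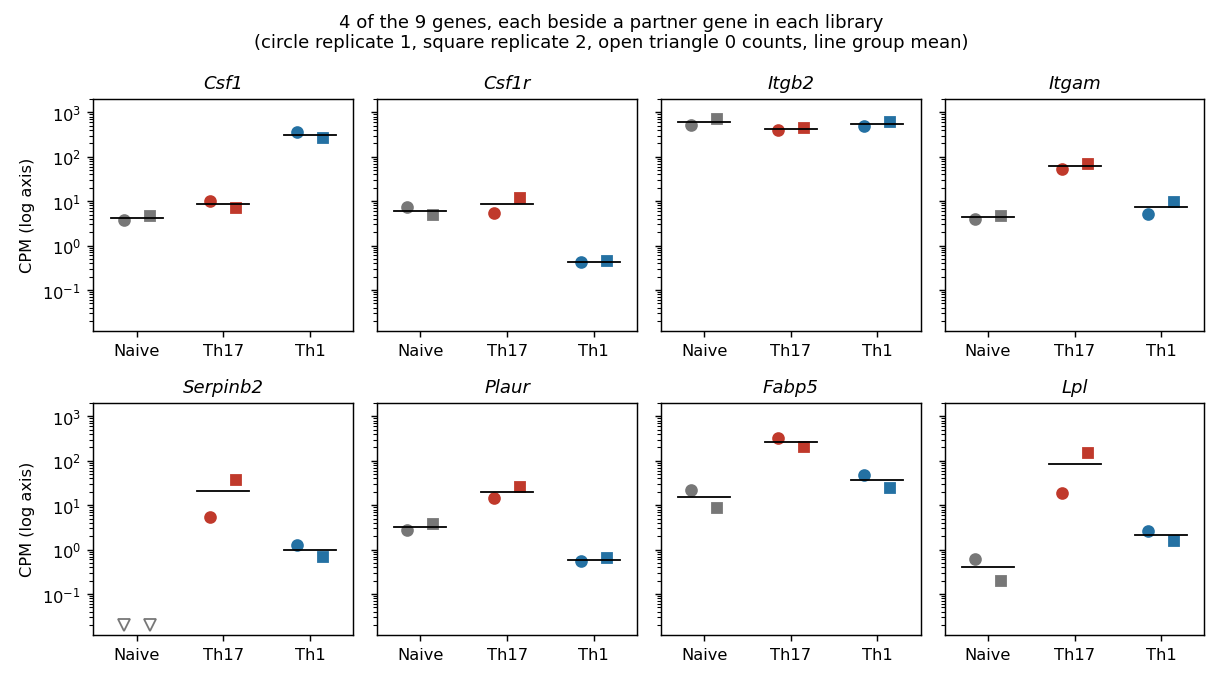
CPM on a log axis in each of the 6 libraries for 4 of the 9 genes, each to the right of 1 partner gene, with lines at the group means and an open triangle for 0 counts. *Csf1* is highest in Th1 (355 and 262 CPM) where *Csf1r* is lowest (0.418 and 0.442 CPM), and *Itgb2* lies between 409 and 726 CPM in all libraries.

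Genes with the profile most like each of the 9, 3 for each, were found by the root mean square (RMS) difference of centred log2 CPM over the 6 libraries, among all genes tested. *Lyz2* was nearest to *Fam20c* (RMS 0.30), *Clec4a1* (0.40) and *Cd300ld* (0.44), and *Mrc1* to *Clec4e* (0.43), *Cd300ld* (0.49) and *C1qb* (0.50). *Lpl* was nearest to *Fcer1a* (0.45), the alpha chain of the IgE receptor of mast cells and basophils, and then to *Bcl2a1a* (0.48) and *Cxcl5* (0.66). *Hp* was nearest to *Cebpe* (0.23), a transcription factor of granulocytes, and also to *Trem3* (0.29). *Clec12a* was nearest to *Cd300a* (0.19), *Arhgap22* (0.23) and *Anxa3* (0.25), and *Plaur* to *Gm14085* (0.36), *Gapt* (0.41) and *Clec12a* (0.42).

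*Itgam* was nearest to *Arg2* (0.22), *Abi3bp* (0.26) and *Vax2* (0.27), *Csf1r* to *Ptpro* (0.25), *Gpr35* (0.33) and *Ppfibp2* (0.38), and *Cd68* to *Mir324* (0.23), *Zfp770* (0.26) and *Spin4* (0.26). Many of these genes had few counts, and 14 of the 27 were also among the nearest 3 with a prior count of 0.5 in place of 2. Among the 9 genes themselves, *Plaur* and *Clec12a* were the most alike (0.42), then *Lyz2* and *Mrc1* (0.62), and *Lpl* and *Csf1r* the least (3.07).

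Leaving out Th17 replicate 2, the library in which *Lpl*, *Mrc1* and *Lyz2* were highest, lowered the log2 fold change over Naive from 7.52 to 5.39 for *Lpl*, from 5.65 to 3.79 for *Mrc1* and from 4.81 to 3.67 for *Lyz2*. That of *Csf1r* over Naive went from 0.47 to -0.20. Those of *Hp* (3.31) and *Itgam* (3.63) stayed near their values with all libraries. The number of the 9 genes called then went from 7 to 4 over Naive, with *Mrc1*, *Plaur* and *Clec12a* no longer called. Over Th1 it went from 8 to 5, with *Lpl*, *Mrc1* and *Csf1r* no longer called. Without Naive replicate 1 or 2 it was 5 over Naive in either case, and without Th1 replicate 1 or 2 it was 6 over Th1. Without Th17 replicate 1 it was 6 over Naive and 8 over Th1. In Th1 compared with Naive, the 4 called became 1 to 3 without single libraries, with 1 left without Th1 replicate 1.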

How the data were processed

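RNA-Seq gene counts of 6 mouse libraries (Naive, Th17 and Th1, 2 replicates each) were analysed. The deposited values are raw counts, which the authors made per the methods and processing notes by aligning reads to mm10 with HISAT2 (2.2.1) and counting with HTSeq (0.13.5). StringTie (2.1.7) and DESeq2 (1.34.0) are also named there, and their output was not used here. Per the methods, duplicate reads were dropped and counting used default settings, whereas the supplementary code has no such removal and counts as reverse-stranded. Either could change levels, above all of highly expressed and overlapping genes. The annotation release is not given in the sources used here.

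In R 4.3.3, edgeR 4.0.16 (with limma 3.58.1) filtered genes by filterByExpr, leaving 13607 of 24223. TMM factors were 0.862 to 1.09. A quasi-likelihood test in 1 model of all 6 libraries, with the group as its single factor, compared each pair of groups, and p-values were adjusted by Benjamini-Hochberg over all genes tested. Calls used the study's thresholds, an adjusted p under 0.01 and a log2 fold change beyond 1. Log2 CPM used a prior count of 2, and the SE is the fold change divided by the square root of F. Depth was 17742158 to 69080017 counts, and floors of 3 counts cover counting error only. DESeq2 1.42.0 was an alternative. The model was tested on simulated data.

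The 9 genes and all lists were chosen with earlier results of these data known. Named were the 9 genes, the 8 defining markers, the 10 other macrophage and monocyte genes highest in Th17, all partners, the 3 highest neutrophil and the 3 highest mast cell and basophil genes, and the 3 nearest profiles to each of the 9. Some genes that meet this rule are left out of the text. Dendritic cell genes were read as values only, and *Ly6g* was not analysed here. The ATAC-Seq and Hi-C data of the study were not used here.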

Additional observations from a re-analysis of the deposited data

How the results depend on the processing

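Over the genes named, 2642 of the results under an alternative kept their direction and their side of the threshold, 178 came to pass it, 136 no longer passed it, 54 without a call changed sign, and 0 with a call did. Counts of called genes depended more on the settings. The cause was not tested, except that the filters change how many genes are tested and leaving out a library changes how many samples are.

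For all genes in either direction, the counts were 739 (Th17 to Naive), 752 (Th17 to Th1) and 1014 (Th1 to Naive). They were 1717, 1797 and 1917 with DESeq2, 2154, 2232 and 2259 with no filter on low counts, and 2063, 2112 and 2164 at an adjusted p under 0.05. With at least 10 counts in every library they were 369 and 442 in the first and second of these. Of the macrophage and monocyte list, 18 rose over Naive and 15 over Th1 in Th17, which became 29 and 27 with DESeq2, 32 and 32 with no filter, 7 and 5 with at least 10 counts in every library, and 30 and 29 at an adjusted p under 0.05. Only the 4 libraries compared gave 23 over Th1. In Th1 compared with Naive, 12 of the list were called in either direction, which became 20 with no filter and 6 with at least 10 counts in every library. Partners called in either direction were 8, 7 and 4 in the 3 comparisons, and became 15, 14 and 11 with no filter, 4, 4 and 1 with at least 10 counts in every library and 13, 11 and 8 at an adjusted p under 0.05. DESeq2 gave 8 partners in Th1 compared with Naive.

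Leaving out each library in turn, with the lone sample assumed to vary like the other groups, gave 316 to 1042, 187 to 1061 and 593 to 883 genes in the 3 comparisons, 8 to 26 and 3 to 23 of the macrophage and monocyte list higher in Th17 and 6 to 11 called in Th1 compared with Naive, and 3 to 11, 2 to 9 and 3 to 4 partners. The lowest counts of the list came without Th17 replicate 2 (8 and 3) and, over Naive, also without Naive replicate 2 (8).

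Whether the replicate numbers pair the samples is not known, and in each group replicate 1 was the deeper library. Deviations from the group means of same-numbered libraries correlated at -0.23 (Naive and Th17), 0.17 (Naive and Th1) and 0.08 (Th17 and Th1). With so few libraries a group, these values cannot decide whether samples were paired or shared a batch. With the replicate number as a block, 1035, 1041 and 1402 genes were called, 25 and 25 of the macrophage and monocyte list rose in Th17 over Naive and Th1, 14 of the list were called in Th1 compared with Naive, and 9, 9 and 6 partners were called. The block with DESeq2 gave 1515, 1630 and 1799 genes, 29 and 26 of the list and 7 partners in Th1 compared with Naive. Within the 4 libraries of Naive and Th17, a fit chosen after seeing the data, the block gave 1301 genes, 29 of the list and 14 partners, and the crossed pairing gave 1593 genes, 27 of the list and 11 partners.

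With library size alone in place of TMM, the share of called genes that were higher was 63.4% in Th17 compared with Th1 (51.2% with TMM) and 52.4% in Th1 compared with Naive (62.2%), and the median of all genes moved by 0.21 and -0.25 on the log2 scale. *Mrc1* then lost both of its calls. With that scaling 4 of the 9 genes, in place of 5, were at least 2-fold higher in Th17 replicate 2. Depth limits genes with few counts, *Mrc1* outside Th17 among them, and the 2 samples a group limit every test.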

Other observations

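Genes of the macrophage and monocyte list beyond those already named were read after their values were seen. The tests of these genes, here and in the next paragraph, carry that limit. Their calls were not checked with single libraries left out. The scavenger receptor *Msr1* had counts of 2 and 0 in Naive and 3.53 and 38.6 CPM in Th17, against 0.108 and 0.379 CPM in Th1, and passed the filter on low counts through Th17 alone, so that no test is given for it. *Marco*, another scavenger receptor, had 0 counts in Naive and Th1 and 0.551 and 4.58 CPM in Th17, at least 26.7-fold higher than in Naive and 21.7-fold higher than in Th1 against a floor of 3 counts a library, and it too passed the filter through Th17 alone. *Spp1*, osteopontin, had 12.2 and 57.0 CPM in Th17, and rose over Naive (log2 fold change 7.10 ± 1.02, edgeR adjusted p = 0.00185) and not over Th1 (edgeR adjusted p = 0.0211). In all 3 the second Th17 library was the higher one.

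Other genes of the list were nearer to equal between the Th17 libraries. *Sirpa*, the inhibitory receptor for CD47, had 18.9 and 29.7 CPM in Th17, and *Fcer1g*, the signalling chain of several Fc receptors, 23.4 and 41.7 CPM. Both rose over Naive and Th1, with edgeR adjusted p of 0.00356 and 0.000613 for *Sirpa* and 0.00598 and 0.00149 for *Fcer1g*. *Apoe*, the apolipoprotein that tissue macrophages secrete, went the other way. It had 128 and 41.8 CPM in Naive, 11.0 and 9.45 CPM in Th17, and 4.16 and 3.73 CPM in Th1, and fell in Th17 compared with Naive (-3.06 ± 0.48, edgeR adjusted p = 0.00299).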
